A study of Homo sapiens with 9 samples.

Results

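The 41 genes described here build the tight junctions and desmosomes of epithelial cells. They were chosen by gene symbol, all 41 were found among the 60612 genes of the table, and 32 of them passed the filter on low values and were tested. RNA was sequenced from VCaP, a human prostate cancer cell line, with 3 libraries in each of 3 groups. The groups were transfection for 4 days with KMT2C siRNA 1, with KMT2C siRNA 2 or with a control siRNA. KMT2C encodes a histone H3 lysine 4 methyltransferase that acts at enhancers. The labels do not say whether the libraries came from separate cultures, so the p-values measure only how far these samples spread, and that spread may be technical.

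Tight junctions seal the space between neighbouring epithelial cells near their apical border. Claudins form the strands that set which ions pass, occludin and its relatives join them, and scaffold proteins such as the zonula occludens proteins and cingulin tie the strands to the actin skeleton. Desmosomes are spot-like contacts that carry tension. Their cadherins, the desmogleins and desmocollins, bind inside the cell to plakoglobin and plakophilins, and these bind desmoplakin, which holds the keratin filaments. The prostate gland is lined by a secretory epithelium whose luminal cells are joined by both kinds of contact.

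Library totals lay between 58462215 and 70726213 counts. KMT2C itself measured 1.54, 1.80 and 2.28 FPKM (sequenced fragments per kilobase of a gene's transcripts, corrected for depth) with siRNA 1. It measured 1.72, 1.64 and 1.73 FPKM with siRNA 2, against 13.7, 12.1 and 12.9 FPKM with control siRNA, so the 6 knockdown libraries lay below all 3 control libraries. It was 7.01-fold lower with siRNA 1 and 7.9-fold lower with siRNA 2. All 7 luminal prostate markers were expressed, with a summed FPKM of 832 to 849 with siRNA 1, 861 to 879 with siRNA 2 and 1630 to 1710 with control siRNA. Of the 7, 5 fell with both siRNAs, against 12.6% of all tested genes. The 1 basal marker of 4 that passed the filter, KRT14, averaged 7.12 FPKM with siRNA 1, 0.81 FPKM with siRNA 2 and 2.48 FPKM with control siRNA. By contrast, the 5 endothelial, 5 leukocyte and 8 retinal markers all fell short of the filter. Of 5 epithelial markers, CDH1, KRT8 and KRT19 fell with both siRNAs and KRT18 with siRNA 2 alone. EPCAM averaged 104 FPKM with siRNA 1, 91.1 with siRNA 2 and 99.2 with control siRNA, and neither change passed the test. The summed FPKM of all 5 was 198 to 238 with siRNA 1, 157 to 177 with siRNA 2 and 266 to 300 with control siRNA. That of 8 mesenchymal markers was 1.09 to 1.45 with siRNA 1, 7.47 to 13.0 with siRNA 2 and 2.12 to 3.61 with control siRNA, and LUM, the only one of them that passed the filter, made up 7.04 to 11.99 FPKM of the siRNA 2 sums. FN1 and COL1A1 averaged 0.25 and 0.14 FPKM with siRNA 2, against 0.564 and 0.437 FPKM with control siRNA. The part of these shifts in the results below was not tested.

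With siRNA 1, 19 of the 32 tested junction genes fell and 6 rose at an adjusted p below 0.05, together 78.1%, against 41.7% of all 12830 tested genes (20.5% lower and 21.2% higher). With siRNA 2, 19 fell and 3 rose, together 68.8%, against 49.3% of all tested genes (24.9% lower and 24.4% higher). The adjusted p comes from the quasi-likelihood test of edgeR, adjusted after Benjamini and Hochberg over all tested genes. The median log2 fold change of the junction genes was -0.49 with siRNA 1 and -0.63 with siRNA 2, against 0.01 and 0.02 over all tested genes. Both contrasts use the same control libraries, so their values are set side by side. The same direction was called with both in 20 junction genes, 62.5% against a background of 25.9%. There were 17 genes called lower with both siRNAs, 53.1% of those tested against a background of 12.6%, and 3 called higher with both, 9.38% against a background of 13.2%. CLDN23 and TJP3, both among the 17, passed the filter through the control libraries alone and so had to differ. In RNA from bulk cultures, fewer cells that express a gene and less RNA per cell cannot be told apart.

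**Figure D1:**
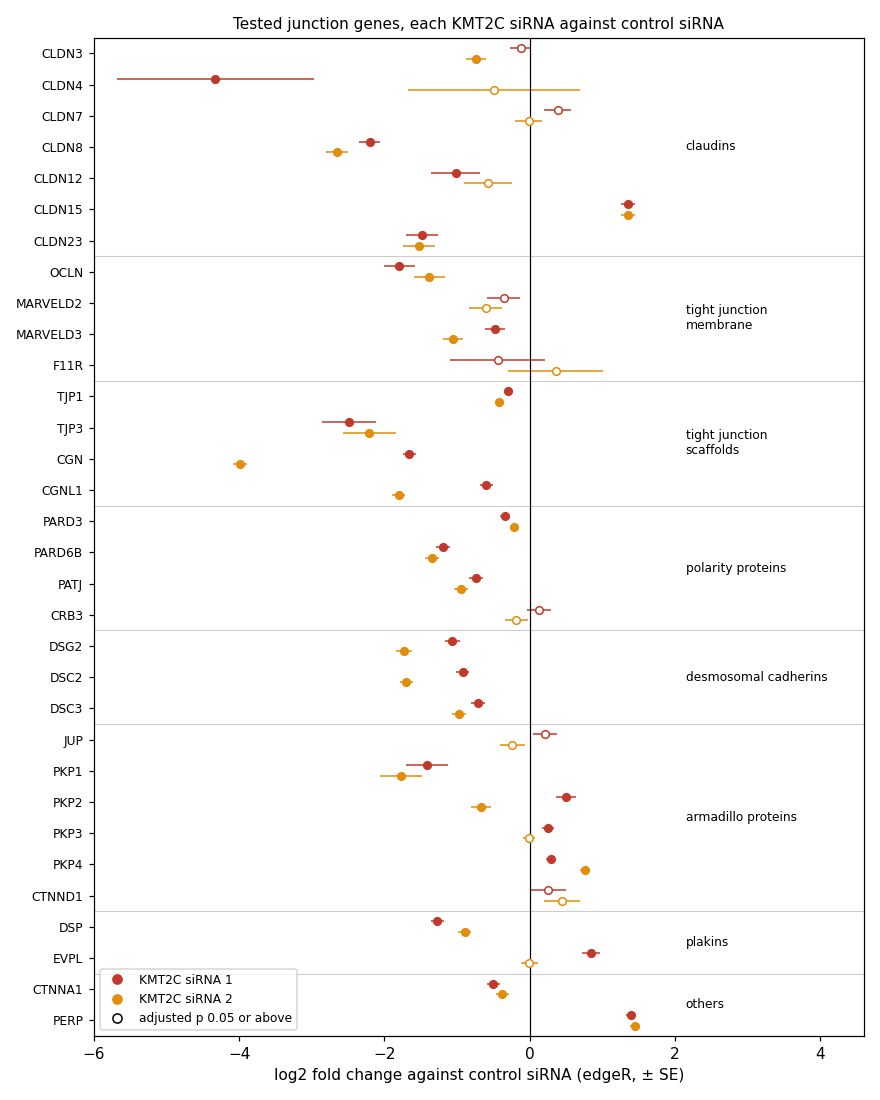
Log2 fold change (x axis) of each of the 32 tested junction genes, with KMT2C siRNA 1 (red) and siRNA 2 (orange) against control siRNA, grouped by role; bars are the standard error and open points have an adjusted p of 0.05 or above. Most filled points lie left of 0, CGN with siRNA 2 (-3.99) among the farthest, while CLDN15 and PERP lie to the right with both siRNAs.

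The desmosomal cadherins tested, DSG2, DSC2 and DSC3, all fell with both siRNAs, against a background of 12.6% of all tested genes. Their genes lie together on chromosome 18 (GRCh38), with DSC3 at chr18:30989365-31042815 and DSC2 at chr18:31058840-31102421 on the minus strand and DSG2 at chr18:31498177-31549008 on the plus strand. Other desmosomal cadherin genes, barely expressed, lie between DSC2 and DSG2. The promoter windows of DSG2, DSC2 and DSC3 are printed because these genes fell together. That of CGN is printed because CGN, a tight junction gene, had the largest fall with siRNA 2 among the junction genes. Each window runs from 250 bases before to 50 bases after the RefSeq transcription start (GRCh38.p14), on the gene's own strand. Capitals mark the E-box CAGGTG, also read as CACCTG on the other strand, which SNAI and ZEB repressors bind, and AACNNGTT, the palindromic core bound by Grainyhead-like factors.
DSG2 (chr18:31497927-31498226, plus strand): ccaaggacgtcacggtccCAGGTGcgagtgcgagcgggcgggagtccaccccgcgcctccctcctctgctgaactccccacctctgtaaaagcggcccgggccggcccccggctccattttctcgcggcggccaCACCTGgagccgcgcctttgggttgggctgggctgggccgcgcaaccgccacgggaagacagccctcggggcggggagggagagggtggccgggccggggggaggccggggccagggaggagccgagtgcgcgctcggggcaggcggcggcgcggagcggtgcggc
DSC2 (chr18:31102372-31102671, minus strand): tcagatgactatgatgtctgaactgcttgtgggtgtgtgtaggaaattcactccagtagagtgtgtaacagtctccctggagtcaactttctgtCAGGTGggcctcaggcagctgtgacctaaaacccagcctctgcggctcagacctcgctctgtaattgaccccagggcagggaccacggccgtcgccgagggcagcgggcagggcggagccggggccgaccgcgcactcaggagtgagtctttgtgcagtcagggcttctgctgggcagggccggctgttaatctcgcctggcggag
DSC3 (chr18:31042693-31042992, minus strand): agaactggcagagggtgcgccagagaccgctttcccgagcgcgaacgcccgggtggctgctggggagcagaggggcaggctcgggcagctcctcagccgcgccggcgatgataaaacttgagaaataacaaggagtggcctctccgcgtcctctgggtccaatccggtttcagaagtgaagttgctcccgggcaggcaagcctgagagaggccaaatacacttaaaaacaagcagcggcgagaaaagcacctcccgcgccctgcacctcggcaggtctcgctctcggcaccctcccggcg
CGN (chr1:151511137-151511436, plus strand): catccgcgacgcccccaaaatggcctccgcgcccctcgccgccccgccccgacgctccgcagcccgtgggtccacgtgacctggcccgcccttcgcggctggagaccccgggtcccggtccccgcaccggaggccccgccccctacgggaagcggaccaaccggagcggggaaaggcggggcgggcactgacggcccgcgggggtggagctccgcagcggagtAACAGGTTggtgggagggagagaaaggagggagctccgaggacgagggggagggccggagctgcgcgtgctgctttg

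The DSG2 window holds the E-box at -232 and, in the other reading, at -116 from the start, and the printed DSC2 window holds it at -156. A further DSC2 window, at chr18:31101211-31101510, is not printed and holds neither motif. The DSC3 window holds neither motif. In CGN the Grainyhead-type core begins at -27. Windows were found for 29 of the 41 junction genes, 46 in all because some genes have several starts. CAGGTG was in 32.6% of these windows (15, from 14 genes) and in 20.6% of all 35116 RefSeq windows. AACNNGTT was in 6.52% of these windows and in 3.52% of all. That is only 3 windows, from the 2 genes CGN and CTNNA1, and the CTNNA1 windows overlap and share the same site. The windows have GC contents of 76.7% for DSG2, 60.7% for DSC2, 63.3% for DSC3 and 75.3% for CGN, against a median of 58.7% over all windows. A match describes the letters and is not a bound site.

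DSG2, the desmoglein made in all epithelia with desmosomes, measured 11.7, 15.2 and 16.1 FPKM with siRNA 1, 9.01, 8.81 and 9.69 FPKM with siRNA 2, and 30.2, 29.04 and 28.9 FPKM with control siRNA. The 3 groups did not overlap, and siRNA 2 was lowest. With siRNA 1 the log2 fold change was -1.06 ± 0.11 (SE, adjusted p = 0.000122), with siRNA 2 it was -1.73 ± 0.11 (adjusted p = 4.71e-06), and the 2 effects differed by 0.67 ± 0.10 (adjusted p = 0.00124). DSC2, its desmocollin partner, measured 2.4, 3.04 and 2.97 FPKM with siRNA 1, 1.69, 1.7 and 1.62 FPKM with siRNA 2, and 5.27, 5.14 and 5.24 FPKM with control siRNA. It showed the same order of groups without overlap. It fell by 0.92 ± 0.09 on the log2 scale with siRNA 1 (adjusted p = 9.2e-05) and by 1.70 ± 0.09 with siRNA 2 (adjusted p = 1.73e-06). The difference was 0.78 ± 0.09 (adjusted p = 0.000193).

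DSC3, a desmocollin typical of basal cells in stratified epithelia, measured 5.14, 6.24 and 6.75 FPKM with siRNA 1, 5.38, 4.83 and 5.2 FPKM with siRNA 2, and 9.92, 10.1 and 9.2 FPKM with control siRNA. All knockdown libraries lay below all control libraries, and the 2 siRNA groups overlapped. On the log2 scale DSC3 changed by -0.71 ± 0.10 under siRNA 1 (adjusted p = 0.000621) and -0.98 ± 0.10 under siRNA 2 (adjusted p = 6.61e-05). The siRNA effects on DSC3 were 0.26 ± 0.10 apart (adjusted p = 0.0619), which became a call without siRNA 1 replicate 1 (0.36, adjusted p = 0.00804).

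DSP, desmoplakin, the plakin that anchors keratin filaments, measured 9.17, 9.58 and 10.7 FPKM with siRNA 1, 12.9, 12.2 and 13.9 FPKM with siRNA 2, and 22.9, 21.6 and 25.3 FPKM with control siRNA. Here siRNA 1 was lowest, and again no groups overlapped. With siRNA 1 DSP changed by -1.27 ± 0.09 on the log2 scale (adjusted p = 1.91e-05), with siRNA 2 by -0.90 ± 0.09 (adjusted p = 5.21e-05), a difference of -0.38 ± 0.09 (adjusted p = 0.00881). EVPL, envoplakin, a plakin of the cornified envelope, measured 5.99, 6.67 and 4.89 FPKM with siRNA 1, 3.06, 3.59 and 3.25 FPKM with siRNA 2, and 3.4, 2.89 and 3.26 FPKM with control siRNA. All siRNA 1 libraries stood above all control libraries, by 0.85 ± 0.12 on the log2 scale (adjusted p = 0.000779), and the siRNAs differed by 0.85 ± 0.12 (adjusted p = 0.000768).

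Among the armadillo proteins, which couple the cadherin tails to desmoplakin or to the actin skeleton, directions were mixed: 1 fell and 1 rose with both siRNAs. PKP1, a plakophilin that strengthens desmosomes, measured 16.0, 20.8 and 17.6 FPKM with siRNA 1, 17.0, 9.33 and 16.8 FPKM with siRNA 2, and 55.7, 56.4 and 30.01 FPKM with control siRNA. The control libraries were spread out but all lay above the knockdown libraries. It was 2.66-fold lower with siRNA 1 (log2 -1.41 ± 0.29, adjusted p = 0.00472) and 3.42-fold lower with siRNA 2 (log2 -1.77 ± 0.29, adjusted p = 0.0011).

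PKP2, the plakophilin of simple epithelia and heart muscle, went in opposite directions with the siRNAs. It measured 2.84, 3.44 and 3.62 FPKM with siRNA 1, 1.5, 1.48 and 1.52 FPKM with siRNA 2, and 2.2, 1.95 and 2.73 FPKM with control siRNA, and the 3 groups did not overlap. On the log2 scale it rose by 0.50 ± 0.14 under siRNA 1 (adjusted p = 0.0194) but fell by 0.66 ± 0.14 under siRNA 2 (adjusted p = 0.00399), effects that differed by 1.16 ± 0.14 (adjusted p = 0.000287). PKP2 was the 1 junction gene called in opposite directions, a class that held 3.24% of all tested genes. Its siRNA 1 call was lost, with values of 0.40 to 0.47, without control replicate 1 or 2 or siRNA 1 replicate 2 or 3.

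PKP4, a plakophilin relative found in desmosomes and adherens junctions, measured 5.99, 6.2 and 6.88 FPKM with siRNA 1, 9.01, 8.68 and 9.12 FPKM with siRNA 2, and 5.16, 5.32 and 4.75 FPKM with control siRNA. The groups were ordered without overlap, with siRNA 2 highest. It rose with both, by 0.30 ± 0.07 (adjusted p = 0.00945) with siRNA 1 and by 0.76 ± 0.07 (adjusted p = 4.17e-05) with siRNA 2. PKP3, the most widespread plakophilin, measured 34.0, 30.6 and 28.6 FPKM with siRNA 1, 26.7, 25.6 and 27.4 FPKM with siRNA 2, and 24.6, 25.3 and 26.9 FPKM with control siRNA. The siRNA 1 libraries all lay above the other 6, by 0.25 ± 0.08 over control (adjusted p = 0.036), a call lost without control replicate 1 or 2, siRNA 1 replicate 1 or 2, or siRNA 2 replicate 1 (PKP3 values of 0.17 to 0.27).

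The other two armadillo genes passed no test. JUP, plakoglobin, averaged 33.3 ± 8.66 FPKM with siRNA 1, 24.8 ± 2.86 with siRNA 2 and 28.1 ± 2.25 with control siRNA (SD, n = 3 each). The JUP effects of the siRNAs were 0.45 apart (adjusted p = 0.0608), which was called without siRNA 1 replicate 1 (0.56, adjusted p = 0.0416) or 3 (0.55, adjusted p = 0.0446). CTNND1, a catenin that keeps classical cadherins at the cell surface, averaged 44.7 ± 16.7 FPKM with siRNA 1, 52.2 ± 0.963 with siRNA 2 and 36.8 ± 5.45 with control siRNA. A single siRNA 1 library, replicate 1, stood apart at 25.7 FPKM, and without it CTNND1 was called higher under siRNA 1 (log2 0.52, adjusted p = 0.00826) and also under siRNA 2 (log2 0.45, adjusted p = 0.00733).

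PERP, a membrane protein of desmosomes and a p53 target, measured 21.9, 19.9 and 19.6 FPKM with siRNA 1, 21.7, 22.1 and 21.2 FPKM with siRNA 2, and 7.54, 7.82 and 7.51 FPKM with control siRNA. Every knockdown library was above every control library. It rose 2.64-fold with siRNA 1 (log2 1.40 ± 0.07, adjusted p = 4.56e-06) and 2.73-fold with siRNA 2 (log2 1.45 ± 0.07, adjusted p = 9.58e-07). CTNNA1, the catenin that links adherens junctions to actin, measured 30.2, 38.2 and 33.8 FPKM with siRNA 1, 34.7, 38.5 and 40.6 FPKM with siRNA 2, and 46.2, 49.2 and 46.6 FPKM with control siRNA. It fell with both siRNAs, with log2 fold changes of -0.50 ± 0.09 (adjusted p = 0.0024) for siRNA 1 and -0.37 ± 0.09 (adjusted p = 0.008) for siRNA 2.

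**Figure D2:**
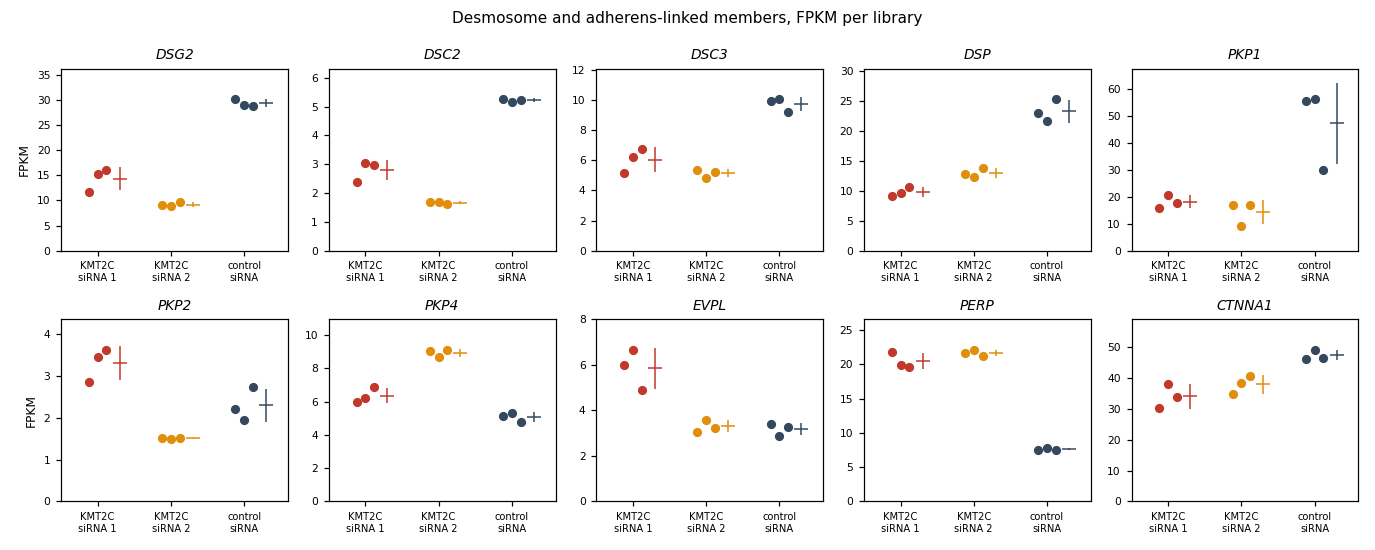
FPKM (y axis, from 0) of 10 desmosome and catenin genes in each library of the KMT2C siRNA 1, KMT2C siRNA 2 and control siRNA groups, with the mean and SD of each group beside its points. The knockdown points of DSG2, DSC2, DSC3, DSP, PKP1 and CTNNA1 lie below the control points, those of PERP and PKP4 above, and PKP2 is above control with siRNA 1 and below it with siRNA 2.

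All 4 tight junction scaffolds were called lower with both siRNAs, against a background of 12.6% of all tested genes. The cingulin pair fell by different amounts. TJP3 passed the filter through the control libraries alone, so the direction of its change was set by the filter. CGN, cingulin, at chr1:151510510-151538692, measured 5.94, 5.91 and 6.08 FPKM with siRNA 1, 1.29, 1.19 and 1.15 FPKM with siRNA 2, and 17.4, 17.6 and 20.6 FPKM with control siRNA. Libraries of a group were close together and the 3 groups far apart. CGN was 3.15-fold lower with siRNA 1 (log2 -1.66 ± 0.09, adjusted p = 5.41e-06) and 15.9-fold lower with siRNA 2 (log2 -3.99 ± 0.09, adjusted p = 1.33e-07), and the effects differed by 2.33 ± 0.09 (adjusted p = 1.28e-06).

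CGNL1, the cingulin relative paracingulin, measured 4.11, 4.82 and 4.02 FPKM with siRNA 1, 1.87, 2.01 and 1.85 FPKM with siRNA 2, and 6.63, 6.68 and 5.92 FPKM with control siRNA. The order of groups was that of CGN, without overlap. Its log2 change was -0.59 ± 0.09 under siRNA 1 (adjusted p = 0.000821) and -1.80 ± 0.09 under siRNA 2 (adjusted p = 1.41e-06). These effects differed by 1.21 ± 0.09 (adjusted p = 1.89e-05). TJP3, a zonula occludens protein of epithelia, measured 0.162, 0.152 and 0.295 FPKM with siRNA 1, 0.213, 0.157 and 0.386 FPKM with siRNA 2, and 1.14, 1.06 and 1.19 FPKM with control siRNA. It was low in all groups, and the log2 fold changes were -2.49 ± 0.37 (adjusted p = 0.000941) with siRNA 1 and -2.21 ± 0.37 (adjusted p = 0.00117) with siRNA 2.

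TJP1, the zonula occludens protein found in most junctions, measured 12.1, 13.5 and 13.9 FPKM with siRNA 1, 12.4, 11.9 and 12.6 FPKM with siRNA 2, and 15.7, 15.8 and 16.0 FPKM with control siRNA. The control libraries were nearly equal and above all others. The fall was small, at -0.29 ± 0.06 (adjusted p = 0.00512) with siRNA 1 and -0.42 ± 0.06 (adjusted p = 0.000543) with siRNA 2. The TJP1 effects differed by 0.13 (adjusted p = 0.133), and by a called 0.18 (adjusted p = 0.026) without siRNA 1 replicate 1.

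Of the membrane proteins other than claudins, OCLN and MARVELD3 fell with both siRNAs. OCLN, occludin, measured 4.33, 6.17 and 7.08 FPKM with siRNA 1, 7.37, 9.07 and 7.49 FPKM with siRNA 2, and 15.7, 19.4 and 24.7 FPKM with control siRNA. All knockdown libraries were below all control libraries. It was 3.47-fold lower with siRNA 1 (log2 -1.80 ± 0.21, adjusted p = 0.000303) and 2.6-fold lower with siRNA 2 (log2 -1.38 ± 0.21, adjusted p = 0.000749).

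MARVELD3, an occludin relative, measured 1.33, 1.41 and 1.18 FPKM with siRNA 1, 0.888, 0.883 and 0.892 FPKM with siRNA 2, and 1.65, 1.58 and 2.12 FPKM with control siRNA. The groups did not overlap. With siRNA 1 it changed by -0.48 ± 0.14 on the log2 scale (adjusted p = 0.0225), a call lost without control replicate 3 (-0.33, adjusted p = 0.0631) or siRNA 1 replicate 3 (-0.41, adjusted p = 0.0636). With siRNA 2 MARVELD3 changed by -1.06 ± 0.14 (adjusted p = 0.000297), 0.58 ± 0.14 beyond siRNA 1 (adjusted p = 0.0102). MARVELD3 shares exon sequence with PHLPP2 on the opposite strand, and whether reads were counted by strand is not given in the sources used here. PHLPP2 measured 2.18 to 2.443 FPKM with siRNA 1, 2.687 to 3.062 with siRNA 2 and 4.373 to 5.735 with control siRNA. The part of this overlap in the MARVELD3 values was not tested.

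MARVELD2, tricellulin, which seals the points where cells meet in threes, and F11R, a junctional adhesion molecule, passed no test. MARVELD2 averaged 10.4 ± 3.28 FPKM with siRNA 1, 8.98 ± 1.24 with siRNA 2 and 13.1 ± 2.29 with control siRNA (SD, n = 3 each). The siRNA 2 change of MARVELD2 (-0.60, adjusted p = 0.0567) was called with DESeq2 (adjusted p = 0.0188) and without siRNA 1 replicate 1 (adjusted p = 0.0129) or 3 (adjusted p = 0.0376). F11R averaged 5.26 ± 4.09 FPKM with siRNA 1, 9.32 ± 4.83 with siRNA 2 and 6.97 ± 3.51 with control siRNA, and every group held both low and high libraries. It overlaps exons of AL591806.3 on the same strand, which measured 0.169, 0.313 and 0.128 FPKM with siRNA 1, 1.31, 0 and 0 FPKM with siRNA 2, and 0, 1.01 and 0.0301 FPKM with control siRNA. The highest values of AL591806.3 were in siRNA 2 replicate 1 and control replicate 2, where F11R was high (12.1 and 9.08 FPKM). F11R was also high in siRNA 1 replicate 3 (9.99 FPKM), siRNA 2 replicate 3 (12.1 FPKM) and control replicate 3 (8.92 FPKM). There AL591806.3 measured 0.128, 0 and 0.0301 FPKM. The part of this overlap in the F11R values was not tested.

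Among the 15 claudins, 7 were tested: CLDN8 and CLDN23 fell and CLDN15 rose with both siRNAs. CLDN8, a barrier-forming claudin at chr21:30214006-30216097, measured 3.5, 3.44 and 3.01 FPKM with siRNA 1, 2.52, 2.91 and 2.02 FPKM with siRNA 2, and 15.2, 13.7 and 16.1 FPKM with control siRNA. The knockdown libraries lay far below the control libraries. It was 4.6-fold lower with siRNA 1 (log2 -2.20 ± 0.14, adjusted p = 1.61e-05) and 6.28-fold lower with siRNA 2 (log2 -2.65 ± 0.15, adjusted p = 2.48e-06). The CLDN8 effects were 0.45 ± 0.14 apart (adjusted p = 0.0333), a call lost without control replicate 1, siRNA 1 replicate 1 or 2, or siRNA 2 replicate 1 or 3 (0.32 to 0.46).

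CLDN15, a claudin that forms cation pores in the gut, lies at chr7:101232092-101238820. It measured 5.13, 5.3 and 5.15 FPKM with siRNA 1, 5.33, 5.33 and 5.28 FPKM with siRNA 2, and 1.79, 2.05 and 2.1 FPKM with control siRNA. The 6 knockdown libraries were nearly equal and all above control. It rose 2.57-fold with each siRNA (log2 1.36 ± 0.10, adjusted p = 2.14e-05 with siRNA 1 and 8.44e-06 with siRNA 2).

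CLDN23, a claudin of the gut epithelium, measured 0.678, 0.599 and 0.611 FPKM with siRNA 1, 0.573, 0.748 and 0.551 FPKM with siRNA 2, and 1.79, 1.29 and 2.11 FPKM with control siRNA. Its log2 fold changes were -1.48 ± 0.22 for siRNA 1 (adjusted p = 0.000974) and -1.52 ± 0.22 for siRNA 2 (adjusted p = 0.000564). Only the control libraries of CLDN23 reached the filter, so the direction of these changes was set by the filter. CLDN3, a barrier claudin common in epithelia, measured 18.2, 14.8 and 13.9 FPKM with siRNA 1, 9.45, 10.1 and 11.8 FPKM with siRNA 2, and 15.6, 16.1 and 18.6 FPKM with control siRNA. All siRNA 2 libraries were below all control libraries, while the siRNA 1 and control groups overlapped. The siRNA 2 change was called, at -0.74 ± 0.14 on the log2 scale (adjusted p = 0.00245), and the siRNA effects differed by 0.62 ± 0.14 (adjusted p = 0.00857).

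CLDN4, which lies near CLDN3 at chr7:73799542-73832684, had libraries that disagreed inside the control group and inside the siRNA 1 group. It measured 2.54, 0.447 and 0.33 FPKM with siRNA 1, 16.4, 16.3 and 16.5 FPKM with siRNA 2, and 58.04, 0.954 and 8.47 FPKM with control siRNA. The highest control library was 60.9 times the lowest and the highest siRNA 1 library 7.71 times the lowest, and these groups overlapped. The log2 fold change with siRNA 1 was -4.33 ± 1.36 (adjusted p = 0.0327), and the call was lost without control replicate 1 (-2.11, adjusted p = 0.146), siRNA 1 replicate 2 (-3.95, adjusted p = 0.0948) or siRNA 1 replicate 3 (-3.91, adjusted p = 0.0912). This call was also lost with limma on log2(FPKM + 1) and log2(FPKM + 0.1) (-2.44 and -3.24). No filter on low values (-4.32) and the 2 groups alone (-4.34) lost it as well. With siRNA 2 the CLDN4 log2 change was -0.49 ± 1.18 (adjusted p = 0.761).

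CLDN12, a claudin found in many tissues, measured 5.95, 7.01 and 2.25 FPKM with siRNA 1, 6.54, 7.26 and 7.37 FPKM with siRNA 2, and 10.4, 10.4 and 9.54 FPKM with control siRNA. All knockdown libraries were below control, and siRNA 1 replicate 3 was far below the rest. With siRNA 1 the CLDN12 log2 change was -1.02 ± 0.34 (adjusted p = 0.0388), a call lost when any control library, any siRNA 2 library or siRNA 1 replicate 1 was left out. With siRNA 2 the CLDN12 change was -0.57 ± 0.33 (adjusted p = 0.187), and it was called with the 2 groups alone (-0.58, adjusted p = 0.000809). Without siRNA 1 replicate 3, both CLDN12 changes were called, that of siRNA 1 at -0.67 (adjusted p = 0.00151) and that of siRNA 2 at -0.58 (adjusted p = 0.000869). CLDN12 shares same-strand exons with CDK14 and GTPBP10, and CDK14 measured 6.03 to 7.13 FPKM with siRNA 1, 6.92 to 7.43 with siRNA 2 and 3.27 to 3.57 with control siRNA. CLDN7, another claudin common in epithelia, averaged 12.8 ± 1.74 FPKM with siRNA 1, 9.93 ± 1.2 with siRNA 2 and 9.62 ± 2.37 with control siRNA, and passed no test. Without control replicate 2, whose control value was the lowest, the CLDN7 effects of the siRNAs were called different (0.39, adjusted p = 0.0419).

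**Figure D3:**
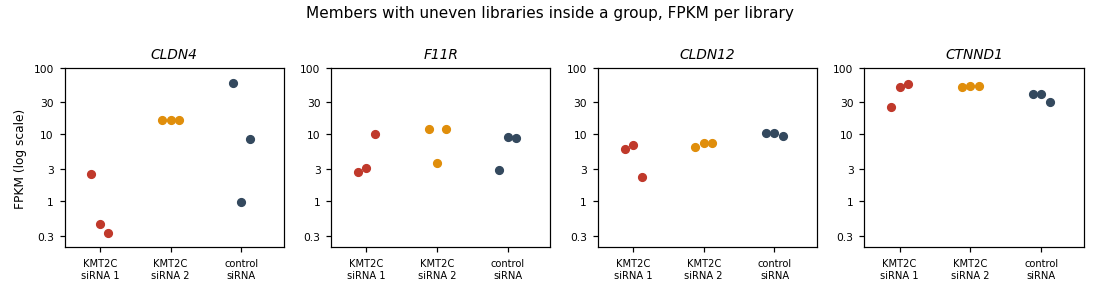
FPKM (y axis, log scale) of CLDN4, F11R, CLDN12 and CTNND1 in each library of the KMT2C siRNA 1, KMT2C siRNA 2 and control siRNA groups. The control libraries of CLDN4 run between 0.954 and 58.04 FPKM while its siRNA 2 libraries stay near 16.4, and single libraries stand apart for the other genes.

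Of the polarity proteins, which place the junction belt at the apical border, PARD3, PARD6B and PATJ fell with both siRNAs. PARD6B, a Par complex adaptor, measured 1.28, 1.22 and 1.29 FPKM with siRNA 1, 1.22, 1.12 and 1.15 FPKM with siRNA 2, and 2.98, 2.69 and 2.88 FPKM with control siRNA. It was 2.29-fold lower with siRNA 1 (adjusted p = 4.07e-05) and 2.54-fold lower with siRNA 2 (adjusted p = 9.46e-06), with all knockdown libraries below control. PATJ, a Crumbs complex scaffold, measured 6.55, 6.11 and 6.35 FPKM with siRNA 1, 5.73, 6.21 and 4.91 FPKM with siRNA 2, and 11.2, 10.4 and 9.51 FPKM with control siRNA. Its libraries split in the same way, with log2 fold changes of -0.73 ± 0.09 (adjusted p = 0.000419) for siRNA 1 and -0.94 ± 0.09 (adjusted p = 6.1e-05) for siRNA 2.

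PARD3, the Par complex scaffold, measured 6.62, 6.32 and 5.99 FPKM with siRNA 1, 7.15, 6.88 and 7.17 FPKM with siRNA 2, and 7.94, 7.57 and 8.08 FPKM with control siRNA. The groups did not overlap but lay close. With siRNA 1 PARD3 changed by -0.34 ± 0.07 on the log2 scale (adjusted p = 0.00353), with siRNA 2 by -0.21 ± 0.07 (adjusted p = 0.0276). The siRNA 2 call of PARD3 was lost with upper-quartile scaling (-0.11, adjusted p = 0.19) and with library totals only (-0.16, adjusted p = 0.074). It was lost too with limma on log2(FPKM + 1) and log2(FPKM + 0.1) (-0.14 and -0.15). Leaving out control replicate 1 or 3 or any siRNA 2 library also lost it (-0.22 to -0.18). CRB3, the Crumbs protein of epithelia, averaged 6.54 FPKM with siRNA 1, 5.4 with siRNA 2 and 5.88 with control siRNA, and passed no test.

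**Figure D4:**
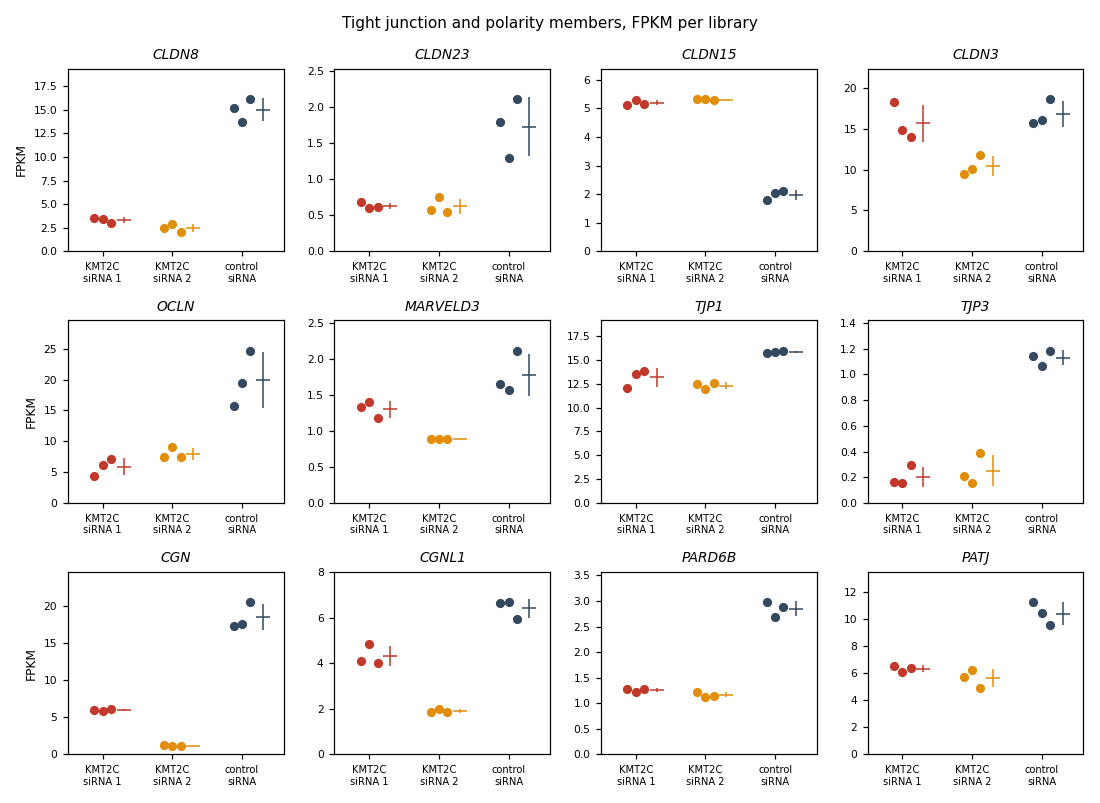
FPKM (y axis, from 0) of 12 tight junction and polarity genes in each library of the KMT2C siRNA 1, KMT2C siRNA 2 and control siRNA groups, with the mean and SD of each group beside its points. CGN and CGNL1 are lowest with siRNA 2, next with siRNA 1 and highest with control siRNA, whereas CLDN15 is higher in all 6 knockdown libraries.

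Set directly against siRNA 2, siRNA 1 gave 10 junction genes higher and 3 lower, 40.6% of the 32 tested, close to the background of 39.5%. Of the 10, CGN, CGNL1, DSG2, DSC2, CLDN8 and MARVELD3 fell with both siRNAs, and the others were CLDN3, PKP2, PKP3 and EVPL. The 3 were CLDN4, PKP4 and DSP.

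The 9 junction genes that were not tested stayed at or below 0.413 FPKM in every library. CLDN6 and CLDN16 were listed at 0 throughout, and CLDN1, CLDN2, CLDN9, CLDN10, CLDN11, CLDN18 and PPL were low. PPL, periplakin, measured 0.252, 0.246 and 0.126 FPKM with siRNA 1, 0.0685, 0.118 and 0.114 FPKM with siRNA 2, and 0.266, 0.329 and 0.413 FPKM with control siRNA. With no filter on low values, PPL was called lower with siRNA 2 (-1.81, adjusted p = 0.00456) and not with siRNA 1 (-0.70, adjusted p = 0.248).

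Further genes of the same contacts moved both ways. Of 19 other tight junction genes tested, 4 fell and 2 rose with siRNA 1, together 31.6%, below the 41.7% of all tested genes. With siRNA 2, 4 fell and 4 rose, together 42.1%, below the 49.3% of all tested genes. MPP5, a Crumbs complex scaffold, fell with both (log2 -0.42 with siRNA 1 and -0.45 with siRNA 2), as did JAM3, a junctional adhesion molecule (-0.76 and -1.37). MARVELD1 (0.56 and 0.83) and SYMPK, symplekin (0.50 and 0.48), rose with both. Of 4 other desmosome and hemidesmosome genes tested, ITGA6 fell (-1.36) and DST rose (0.43) with siRNA 2, both named after their values were seen. Their siRNA 1 changes did not pass, at -0.27 (adjusted p = 0.312) for ITGA6 and -0.02 (adjusted p = 0.927) for DST.

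Of 11 adherens junction genes tested, 6 fell and 3 rose with siRNA 1, together 81.8% against 41.7% of all tested genes. With siRNA 2, 6 fell and 1 rose, together 63.6% against 49.3%. CDH1, E-cadherin, averaged 32.1 ± 2.74 FPKM with siRNA 1, 26.1 ± 5.83 with siRNA 2 and 68.0 ± 4.67 with control siRNA (SD, n = 3 each), and fell with both (log2 -1.11 with siRNA 1 and -1.44 with siRNA 2). CTNND2 (-0.86 and -1.02) and CTNNAL1 (-0.29 and -1.17), both catenins or their relatives, fell as well. NECTIN2 rose with siRNA 1 (0.71) and fell with siRNA 2 (-1.01), while NECTIN3 fell with siRNA 1 (-0.92) and rose with siRNA 2 (1.25). Only the siRNA 2 libraries of NECTIN3 reached the filter (1.51, 1.56 and 1.63 FPKM), so the direction of its siRNA 2 change was set by the filter.

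Of 14 tested regulators of epithelial junction genes, which are transcription factors apart from the splicing factors ESRP1 and ESRP2, 8 fell with siRNA 1, against a background of 20.5% called lower. With siRNA 2, 10 fell and 2 rose, against 24.9% called lower and 24.4% called higher. The 2 that rose were ESRP1 (log2 0.39) and the repressor SNAI1 (log2 1.25). SNAI1 averaged 2.18 FPKM with siRNA 2 and 0.878 FPKM with control siRNA, and its siRNA 1 change was not called (log2 0.66). SNAI2, SNAI3, ZEB1 and ZEB2 fell short of the filter. There were 7 of the 14 that fell with both, against 12.6% of all tested genes, and all 7 are transcription factors. GRHL1, a Grainyhead-like activator, averaged 2.05 ± 0.0983 FPKM with siRNA 1, 2.33 ± 0.106 with siRNA 2 and 4.88 ± 0.345 with control siRNA. GRHL2, its relative that binds many junction genes, averaged 39.2 ± 2.6 FPKM with siRNA 1, 38.6 ± 1.55 with siRNA 2 and 55.6 ± 0.767 with control siRNA. KLF5, a Kruppel-like activator of epithelia, averaged 0.896 ± 0.107 FPKM with siRNA 1, 1.95 ± 0.199 with siRNA 2 and 6.28 ± 0.85 with control siRNA. The other four were EHF (log2 -0.39 with siRNA 1 and -0.81 with siRNA 2), ELF3 (-0.81 and -1.14), CDX2 (-1.37 and -1.43) and OVOL1 (-0.37 and -0.64).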

How the data were processed

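RNA from 9 VCaP libraries was sequenced on an Illumina instrument. The tool Bowtie 0.12.2 and 2 genome builds, hg38 and mm8, appear with no stated role, per the submitters' processing notes. Neither counter nor annotation is given in the sources used here. The deposited table gives expected counts per gene, whole numbers that were not normalized and that pile up at 4 and 8 (11286 values at 4), so about 4 counts stand for 1 fragment. It also gives FPKM calculated by the authors. Coordinates are the table's, and all 41 genes overlap their GENCODE 29 position on GRCh38.

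Expected counts were rounded, which changed none, and tested with edgeR 4.0.16 (R 4.3.3): TMM scaling, quasi-likelihood F test, all 9 libraries with 1 mean per group, 12830 genes reaching an FPKM of 1 in 3 or more libraries, Benjamini-Hochberg adjustment at 0.05. The code was first tested on simulated data. The standard error is the log2 fold change over the square root of F, and SDs are over 3 libraries. Alternatives used DESeq2 1.42.0, limma 3.58.1 on log2(FPKM + 1) and log2(FPKM + 0.1), other scalings, other filters, counts divided by 4, a replicate block, the compared groups alone, and each library left out.

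The genes and lists were chosen with earlier results of these data known. Tested genes that passed in any contrast, or whose libraries of 1 group differed by more than 4-fold, are given per library, the other tested genes by group mean; genes outside the 41 are named when called with both siRNAs, from the lists of other tight junction, desmosome, adherens junction, regulator and protease genes, or as markers. Values of CTNND1 (1 library), F11R and PPL are given beyond that rule and were chosen after they were seen. The same holds for DSC1, DSG1, ITGA6, DST, CDK14, PHLPP2, AL591806.3, ESRP1, the SNAI genes and the ZEB genes. Promoter windows are from RefSeq. Protein sequences were not used here.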

Additional observations from a re-analysis of the deposited data

Results flagged for a closer look

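The effects of the 2 siRNAs differed in 13 junction genes by edgeR's contrast of siRNA 1 with siRNA 2, and the values here are the log2 fold change with siRNA 1 minus that with siRNA 2. Both effects are measured against the same controls, which cancel in this difference. The value was higher with siRNA 1 in 10 genes. These were CGN (2.33), CGNL1 (1.21), PKP2 (1.16), EVPL (0.85), DSC2 (0.78), DSG2 (0.67), CLDN3 (0.62), MARVELD3 (0.58), CLDN8 (0.45) and PKP3 (0.26). CLDN4 (-3.84), PKP4 (-0.46) and DSP (-0.38) were higher with siRNA 2. The CLDN4 difference was no longer called (-3.85 to -3.40) without control replicate 3, siRNA 1 replicate 2 or 3, or any siRNA 2 library. The PKP3 difference was also lost (0.18 to 0.28) without control replicate 2, siRNA 1 replicate 1 or 2, or any siRNA 2 library. The share of tested junction genes in this set, 40.6%, is near the 39.5% of all tested genes.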

How the results depend on the processing

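The counts of called junction genes stayed within 1.5 times their value under every alternative run. Leaving out each library gave 21 to 24 called with siRNA 1, 21 to 24 with siRNA 2, 10 to 14 between the siRNAs and 18 to 21 in the same direction with both; with the replicate block the counts were 24, 23, 12 and 20. Deviations from each group's own mean were correlated between same-numbered libraries, and these correlations ran between -0.0688 and 0.0393. They gave no sign that the numbers pair the samples. They cannot decide whether same-numbered samples were set up together, because such samples need not share deviations. With the block, the siRNA difference was not called for CLDN8 (0.45, edgeR adjusted p = 0.0527) or PKP3 (0.26, edgeR adjusted p = 0.0657), nor was PKP3 with siRNA 1 (0.25, edgeR adjusted p = 0.0677). The block added calls for MARVELD2 with siRNA 2 (-0.59, edgeR adjusted p = 0.0339) and for the OCLN difference (-0.45, edgeR adjusted p = 0.0491). Of the calls, 20 of 25 with siRNA 1 held in every alternative (lost at least once: CLDN4, CLDN12, MARVELD3, PKP2, PKP3), 21 of 22 with siRNA 2 (lost: PARD3) and 10 of 13 between the siRNAs (lost: CLDN4, CLDN8, PKP3). With no library left out, the siRNA 1 calls of CLDN12, MARVELD3 and PKP3 were also lost with no filter on low values. Those of CLDN12 and PKP3 were lost with the 2 groups alone, and that of PKP3 with filterByExpr. The 2 groups alone also added siRNA 2 calls, for CLDN12 (-0.58, edgeR adjusted p = 0.000809), MARVELD2 (-0.61, edgeR adjusted p = 0.016) and CTNND1 (0.44, edgeR adjusted p = 0.0146). Between the siRNAs, CLDN8 and PKP3 were lost with upper-quartile scaling and the 2 groups alone. CLDN4 was lost there with no filter and with filterByExpr. No called value changed sign.

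Uncalled values that changed sign, cause not tested, were as follows. With siRNA 2 against control, CLDN4 gave 0.76 and 1.03 with limma at pseudocounts 1 and 0.1 and 0.89 with the replicate block, and -1.06 to 1.73 with a library left out. CLDN7 gave 0.0879 by upper quartile, 0.0420 by library totals, 0.0613 and 0.0695 with limma, 0.00268 with the block and -0.20 to 0.10 with a library left out. PKP3 gave 0.0926, 0.0484, 0.0491 and 0.0508 under the first 4 of these, and -0.0447 to 0.0393 with a library left out. EVPL gave 0.0948, 0.0498, 0.0396 and 0.0503, and -0.0638 to 0.0462. F11R ran over -0.0152 to 0.74. Between the siRNAs, CLDN15 gave 0.0410 with no filter and 0.0375 with filterByExpr, and -0.00880 to 0.00942; CLDN23 gave -0.00296 by upper quartile, and -0.0338 to 0.19; TJP3 ran over -0.63 to 0.16 and CTNND1 over -0.40 to 0.0771. With siRNA 1, JUP ran over -0.0102 to 0.32.

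Limits are 3 libraries per group, about 4 counts per fragment, and unknown strand setting. Upper-quartile scaling put the median of all genes at 0.12 with siRNA 2.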

Other observations

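Membrane proteases and their inhibitors, which act on junction proteins in epithelia, included 6 tested genes, of which 4 fell with siRNA 1 and 5 with siRNA 2, against 20.5% and 24.9% of all tested genes. The 4 named here fell with both. ST14, matriptase, averaged 49.1 ± 1.88 FPKM with siRNA 1, 48.8 ± 0.64 with siRNA 2 and 70.0 ± 5.89 with control siRNA (SD, n = 3 each). PRSS8, prostasin, averaged 7.15 ± 0.541 FPKM with siRNA 1, 8.32 ± 0.584 with siRNA 2 and 10.8 ± 0.797 with control siRNA. SPINT1, a matriptase inhibitor, averaged 21.8 ± 0.834 FPKM with siRNA 1, 18.8 ± 0.825 with siRNA 2 and 27.6 ± 1.23 with control siRNA. TMPRSS2, which is fused to ERG in this line, averaged 19.3 ± 0.655 FPKM with siRNA 1, 43.0 ± 0.451 with siRNA 2 and 96.4 ± 1.86 with control siRNA.

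Between DSC2 and DSG2 on chromosome 18 lie other desmosomal cadherin genes that were barely expressed. DSC1 averaged 0.172 FPKM with siRNA 1, was listed at 0 with siRNA 2 and averaged 0.158 FPKM with control siRNA. DSG1 was listed at 0 with both KMT2C siRNAs and averaged 0.013 FPKM with control siRNA.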
